A study of Rattus norvegicus with 6 samples.

Results

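The genes described here encode the proteins of the mitochondrial ribosome, and they were measured in the hippocampus of Fmr1 KO and WT rats. Members were taken by their symbols: every gene of the count table whose name begins with Mrpl (large subunit) or Mrps (small subunit) followed by a number. The rule found 71 of the 17455 genes in the table, 43 for the large subunit and 28 for the small subunit. RNA-Seq was performed on 3 WT and 3 KO male rats aged 10 weeks, with 1 library per rat. All rats were Long Evans, from the LE-Fmr1em2Mcwi line, and WT and KO animals were taken from the same crosses. The KO allele is carried in the germline and is not limited to a cell type. The study's methods give 1 litter per group for the transcriptomic work. If each group was a litter of its own, litter and genotype cannot be told apart.

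The mitochondrial ribosome translates the few proteins that mitochondrial DNA encodes, all of them subunits of the oxidative phosphorylation complexes. Its rRNAs come from the mitochondrial genome, whereas its proteins are encoded in the nucleus, made in the cytosol and imported. Many of them have a bacterial counterpart, and the others are specific to mitochondria. The symbols do not always give the place: in mammals the products of Mrps30 and Mrps18a sit in the large subunit, and the product of Mrps36 is a component of the 2-oxoglutarate dehydrogenase complex rather than a structural part of the ribosome.

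In this hippocampal RNA the members differed little between genotypes. Of the 71 members, 68 had enough counts to be tested, 40 of the large and 28 of the small subunit. In edgeR's quasi-likelihood test 5 of the 68 were lower in KO at an unadjusted p under 0.05, the threshold that the study's methods use, and 0 were higher. Over all 11800 genes tested, 5.15% were lower and 4.19% were higher by the same rule. After Benjamini-Hochberg adjustment over all genes tested no member passed 0.05, the smallest adjusted p being 0.334, against 0.0254% of all genes. DESeq2 gave 0 members past its adjusted threshold as well, against 35 of the 14474 genes with a DESeq2 p-value. Some tested members, Mrps12 among them, were given no adjusted p by DESeq2 and could not pass. With DESeq2, 1 member, Mrpl52, was lower at an unadjusted p under 0.05. Of the 14474 genes with a DESeq2 p-value 3.24% were lower, a set that includes genes left out of the edgeR test. The lower members were Mrpl52, Mrpl54, Mrpl27 and Mrpl55 of the large subunit and Mrps21 of the small subunit.

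The promoters of members on which the results turn are shown first, since NRF1, the GA-binding protein and YY1 are known to bind promoters of nuclear genes for mitochondrial proteins. The sequences are from RefSeq on GRCr8, from 250 bases before to 50 bases after the start site, on the strand of the gene. Capitals mark matches on either strand to 3 motifs: CCGGAAG for the ETS family, to which the GA-binding protein belongs, AAGATGGC for YY1 and GCGCATGCG for NRF1. Mrpl52 (chr15:31852686-31852985, plus strand) was the member with the smallest p. Mrps21 (chr2:186103302-186103601, minus strand) was the one lower member of the small subunit. Mrps31 (chr16:76324016-76324315, minus strand) had the largest fold change in the other direction. Mrps18b (chr20:2842756-2843055, plus strand) is shown because its promoter held all 3 motifs. Mrpl46 (chr1:142116981-142117280, minus strand) starts 234 bases from Mrps11, which is read in the opposite direction.
Mrpl52: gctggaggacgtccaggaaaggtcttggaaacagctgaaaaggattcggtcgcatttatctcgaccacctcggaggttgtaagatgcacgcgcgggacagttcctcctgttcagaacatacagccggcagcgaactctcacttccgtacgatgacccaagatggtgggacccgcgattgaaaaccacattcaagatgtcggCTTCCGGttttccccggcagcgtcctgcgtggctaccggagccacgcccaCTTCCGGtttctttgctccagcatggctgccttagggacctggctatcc
Mrps21: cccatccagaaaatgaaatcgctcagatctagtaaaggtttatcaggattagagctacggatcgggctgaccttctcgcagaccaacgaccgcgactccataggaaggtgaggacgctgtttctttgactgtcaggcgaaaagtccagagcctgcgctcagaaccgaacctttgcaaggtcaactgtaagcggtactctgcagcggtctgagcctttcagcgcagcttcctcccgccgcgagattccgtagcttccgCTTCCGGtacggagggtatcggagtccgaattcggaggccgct
Mrps31: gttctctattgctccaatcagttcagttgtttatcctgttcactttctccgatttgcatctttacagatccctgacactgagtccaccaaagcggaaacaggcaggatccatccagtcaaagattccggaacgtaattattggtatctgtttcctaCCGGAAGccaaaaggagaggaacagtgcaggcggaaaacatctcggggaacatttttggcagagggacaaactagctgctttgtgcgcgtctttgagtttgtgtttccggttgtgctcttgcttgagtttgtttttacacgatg
Mrps18b: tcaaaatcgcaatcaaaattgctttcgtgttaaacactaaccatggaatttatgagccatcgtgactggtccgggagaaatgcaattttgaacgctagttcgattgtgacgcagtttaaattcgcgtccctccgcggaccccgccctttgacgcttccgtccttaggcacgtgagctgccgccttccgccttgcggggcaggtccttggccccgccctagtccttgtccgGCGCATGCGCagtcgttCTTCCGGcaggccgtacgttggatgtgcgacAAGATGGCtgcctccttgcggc
Mrpl46: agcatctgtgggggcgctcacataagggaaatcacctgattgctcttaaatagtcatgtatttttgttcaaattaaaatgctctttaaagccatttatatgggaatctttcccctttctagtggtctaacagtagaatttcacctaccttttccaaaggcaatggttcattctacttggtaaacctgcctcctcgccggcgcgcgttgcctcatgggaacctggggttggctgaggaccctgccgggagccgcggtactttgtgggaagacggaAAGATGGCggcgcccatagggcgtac

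A promoter was listed for 57 of the 71 members, and 20 of these (35.1%) held the ETS motif, against 17.0% of the promoters of all genes tested and 11.2% of all protein-coding promoters. The YY1 motif was found in 14 (24.6%), against 5.36% and 3.92%. The NRF1 motif was found in 5 (8.77%), against 3.16% and 2.03%. At least 1 of the 3 motifs was present in 31 member promoters (54.4%) and in 23.2% of the promoters of genes tested. The median GC content of the member promoters was 56.0%, and that of the promoters of genes tested was 61.0%. The shares in both subunits were alike for the ETS motif, 34.3% of 35 large and 36.4% of 22 small subunit promoters.
The Mrpl52 promoter shown above held the ETS motif at 2 places, and both matches lie on the opposite strand. In the Mrps18b promoter the 10 capital letters at the NRF1 motif are 2 overlapping matches, 1 on each strand. Mrps31 carried the ETS motif as well, further upstream, while its fold change had the opposite sign. Among the 54 tested members with a promoter, the median log2 fold change was -0.06 for the 17 with the ETS motif and -0.05 for the 37 without it. A match is a description of the letters and not a site of binding.

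Mrpl52, a mitochondria-specific protein of the large subunit, had the lowest fold change of the members. Its normalised read count was 33.7, 36.0 and 29.4 CPM (reads scaled to a common library size) in WT replicates 1 to 3 and 27.0, 25.1 and 26.6 CPM in KO. Every KO library was below every WT library, and WT replicate 3 was the WT library nearest to KO. The mean was 33.0 ± 3.36 CPM in WT and 26.3 ± 1.03 CPM in KO (SD, n = 3), so that KO had 79.4% of the WT level. The log2 fold change was -0.33 with SE 0.0995 (edgeR adjusted p = 0.334). Without WT replicate 3 the edgeR adjusted p of Mrpl52 was 0.0415, and it was then the 1 member past the adjusted threshold, where 2.15% of all genes passed.

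Mrps21, the counterpart of bacterial ribosomal protein S21, was the lower member of the small subunit. It had 39.3, 41.3 and 35.5 CPM in the WT libraries and 31.96, 32.5 and 35.2 CPM in the KO libraries. The groups did not overlap, although KO replicate 3 and WT replicate 3 were nearly level. The log2 fold change was -0.22 with SE 0.0903 (edgeR adjusted p = 0.466).
Mrpl55, another protein with a bacterial counterpart, had 28.1, 31.4 and 29.8 CPM in WT and 25.6, 27.1 and 24.96 CPM in KO. Its groups did not overlap either, and WT replicate 3 lay between the other two WT libraries. The log2 fold change was -0.20 with SE 0.0935 (edgeR adjusted p = 0.533).

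For the remaining lower members 1 or more KO libraries reached the WT range. Mrpl54, which is mitochondria-specific, had 48.4, 49.7 and 38.4 CPM in WT and 38.6, 39.2 and 39.9 CPM in KO. WT replicate 3 was below all 3 KO libraries, and the log2 fold change was -0.21 with SE 0.0981 (edgeR adjusted p = 0.526). Mrpl27, whose bacterial counterpart lies close to the peptidyl transferase centre, had 43.0, 41.3 and 35.6 CPM in WT and 33.0, 35.9 and 35.3 CPM in KO. Here too the difference lay between WT replicates 1 and 2 and the other libraries. Its log2 fold change was -0.20 with SE 0.0925 (edgeR adjusted p = 0.527).

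**Figure D1:**
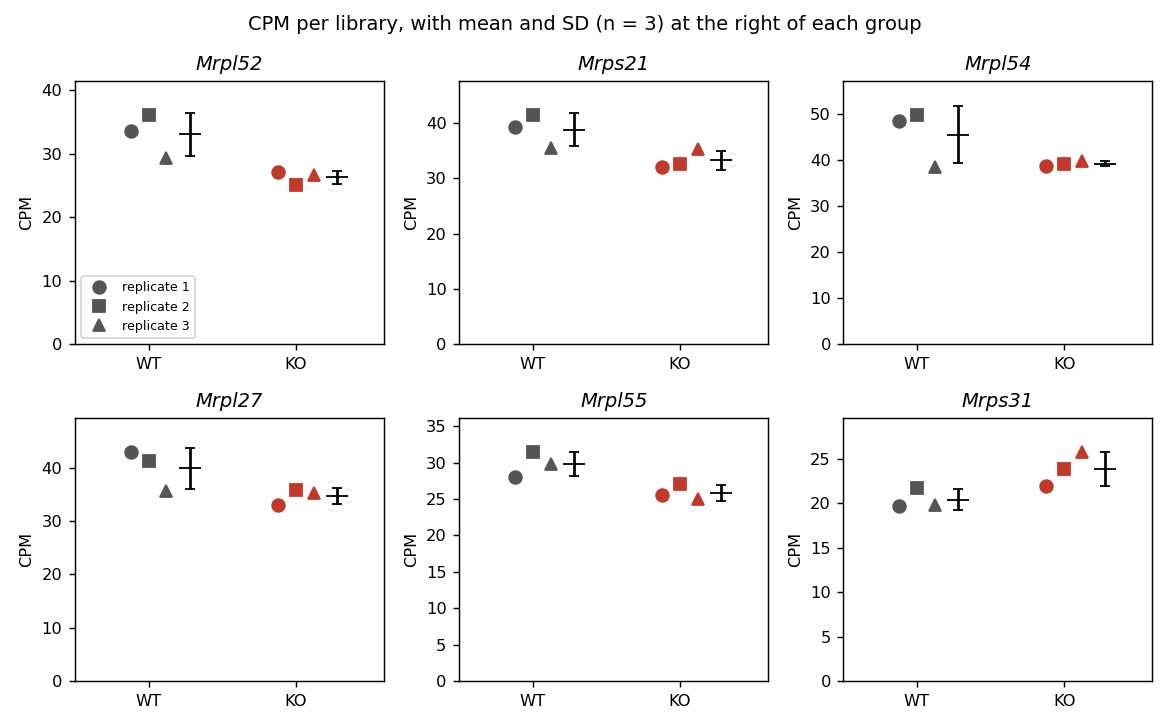
Normalised read count in CPM (y axis, from 0) of 6 members in each library, with WT in grey, KO in red, a marker shape per replicate and the mean with SD (n = 3) beside each group. Mrpl52, Mrps21 and Mrpl55 do not overlap between groups, WT replicate 3 lies with KO in Mrpl54 and Mrpl27, and Mrps31 is higher in KO.

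The count of lower members moved with single libraries. It was 11 without WT replicate 3, when 8.93% of all genes were lower, and these 11 included 4 of the 5 named above. It was 2 without WT replicate 1 and 1 without WT replicate 2, where 486 of 11927 and 377 of 11889 genes were lower. It was 1 without KO replicate 1 (377 of 11922 genes), 2 without KO replicate 2 (582 of 11893) and 2 without KO replicate 3 (466 of 11926). Mrpl52 was among the lower members in each of these fits.

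By the overlap of libraries alone, 4 members had all KO libraries below all WT libraries, where 7.52% of all genes did, and 2 had all KO libraries above, where 7.19% did. The lower ones were Mrpl52, Mrps21, Mrpl55 and Mrpl19. The higher ones were Mrps31 and Mrps22, both mitochondria-specific proteins of the small subunit. The values of Mrps31 are given because its fold change was the highest of the members and were chosen after they were seen. It had 19.7, 21.8 and 19.8 CPM in WT and 22.0, 23.8 and 25.8 CPM in KO. The lowest KO library and the highest WT library were nearly level, and the log2 fold change of 0.22 with SE 0.104 did not pass the unadjusted threshold in edgeR (edgeR adjusted p = 0.535).

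Most members had fold changes slightly below 0. The median log2 fold change of the 68 tested members was -0.05, against 0.0017 over all genes tested, and 50 of the 68 were below 0, whereas 5843 of the 11800 genes were. No more can be read from single members, because the 95% interval of a fold change reached a median of 0.21 to either side on the log2 scale, from 0.15 to 0.57. The log2 fold change was within 0.25 of 0 for 67 members. For 65 the whole interval lay between -0.5 and 0.5, and for 5 it excluded 0. The depth behind these values was moderate: the median count of a tested member was 366 reads per library, and the lowest mean count was 39.8 reads, for Mrpl1. Levels of different members are not ranked here, because the lengths of their transcripts are not used.

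**Figure D2:**
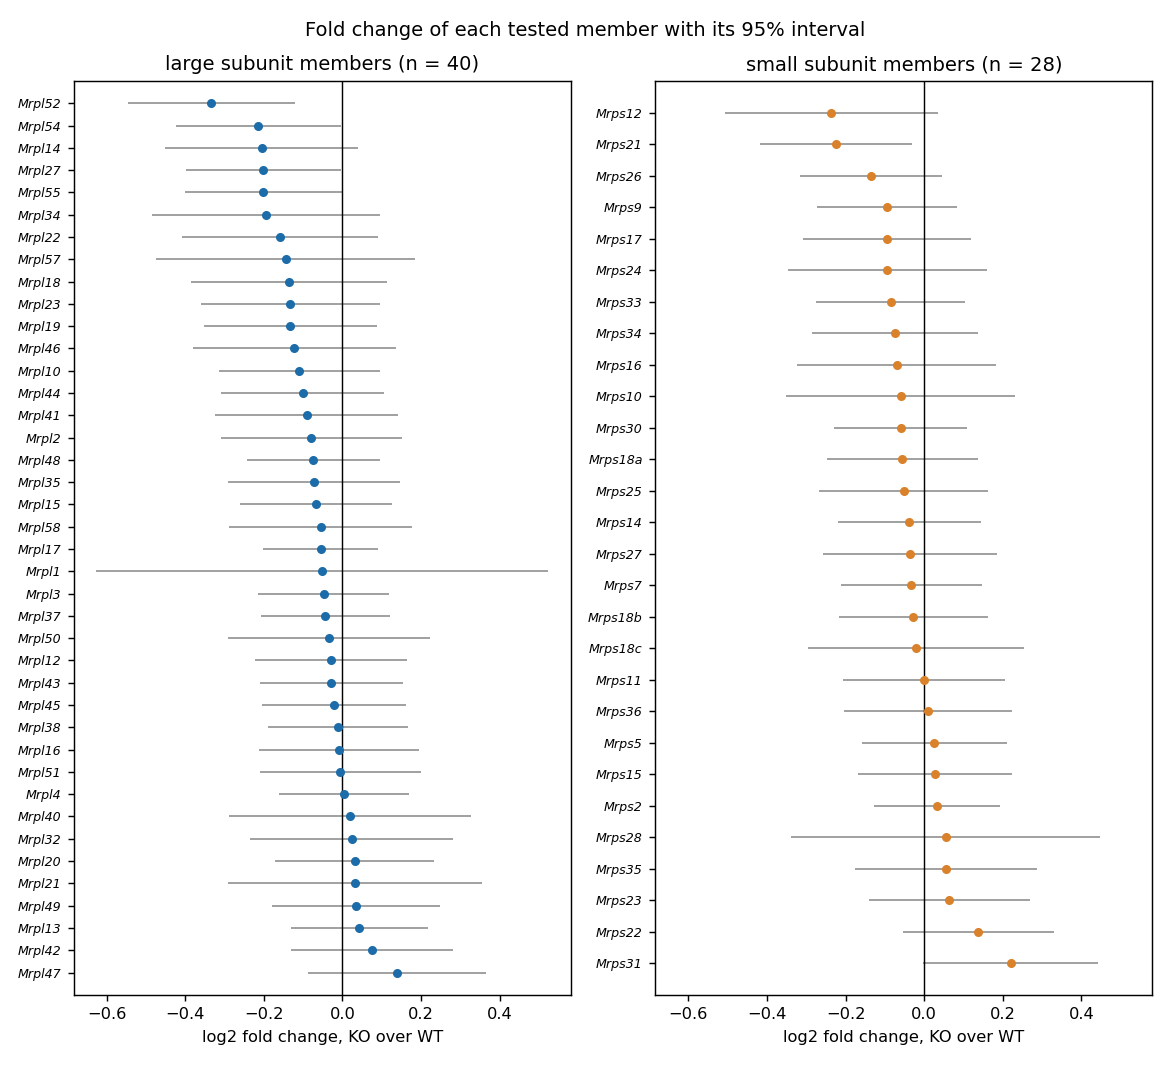
Log2 fold change of KO over WT (x axis) for each of the 40 large and 28 small subunit members tested, 1 gene per line, with bars for the 95% interval. The points run from -0.33 (Mrpl52) to 0.22 (Mrps31), and 5 intervals exclude 0.

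The question whether the large and small subunits differ was addressed by the same values. In the large subunit 31 of 40 members were below 0, with a median log2 fold change of -0.06, and 4 were lower by the unadjusted threshold. In the small subunit 19 of 28 were below 0, with a median of -0.04, and 1 was lower. Over all genes tested 49.5% were below 0 and 5.15% were lower. The medians differed by 0.018 on the log2 scale, and by 0.0023 to 0.052 when 1 library was left out, with the small subunit median above that of the large subunit each time. This difference was not tested. Counting Mrps30 and Mrps18a with the large subunit and leaving out Mrps36 gave -0.06 for 42 and -0.04 for 25 members.
The summed level of the large subunit members was 1475, 1475 and 1305 CPM in WT and 1314, 1379 and 1377 CPM in KO. That of the small subunit members was 988, 1026 and 909 CPM in WT and 915, 946 and 998 CPM in KO. In both sums WT replicate 3 was the lowest of the 6 libraries, so the groups overlapped. The ratio of the large to the small subunit sum was 1.49, 1.44 and 1.44 in WT and 1.44, 1.46 and 1.38 in KO. KO replicate 3 had the lowest ratio, KO replicate 1 was just below the lowest WT ratio and KO replicate 2 was within the WT range. In these bulk samples, fewer cells of a type and less RNA per cell cannot be told apart.

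The members were also grouped by origin, and the differences between these groups were not tested. Among proteins with a bacterial counterpart, the median log2 fold change was -0.07 for 23 large subunit members, of which 17 were below 0, and -0.04 for 15 small subunit members, of which 11 were below 0. Among mitochondria-specific proteins it was -0.06 for 19 large subunit members, of which 16 were below 0, and -0.03 for 10 small subunit members, of which 6 were below 0. Mrps31 and Mrps22, the 2 members with all KO libraries above all WT libraries, belong to the last of these groups. In these groups Mrps30 and Mrps18a are counted with the mitochondria-specific proteins of the large subunit, and Mrps36 is left out.

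With all 6 libraries none of the members named for a known function passed the unadjusted threshold in edgeR. Without WT replicate 3 Mrpl10 and Mrps12 passed it, with log2 fold changes of -0.21 and -0.32. Leaving out the other libraries in turn gave -0.14 to -0.01 for Mrpl10, the weakest without WT replicate 1, and -0.31 to -0.12 for Mrps12, the weakest without KO replicate 1. Mrps12, a protein of the decoding centre, had 22.2, 23.2 and 19.0 CPM in WT and 15.1, 19.9 and 19.5 CPM in KO. KO replicate 1 was the lowest library, and the log2 fold change was -0.24 with SE 0.126 (edgeR adjusted p = 0.565). The products of Mrpl10 and Mrpl12 belong to the stalk that recruits translation factors, and the product of Mrpl12 also binds the mitochondrial RNA polymerase. Their log2 fold changes were -0.11 with a 95% interval from -0.31 to 0.10 and -0.03 with an interval from -0.22 to 0.16. Mrpl58, a relative of the release factors that can free stalled ribosomes, had -0.06 with an interval from -0.29 to 0.18.
The members whose place differs from their symbol had log2 fold changes of -0.06 (Mrps30), -0.06 (Mrps18a) and 0.01 (Mrps36). The paralogs of bacterial S18 other than Mrps18a were also near 0, with -0.03 for Mrps18b and -0.02 for Mrps18c. The fold changes nearest to 0 were those of Mrpl4 and Mrps11. Mrpl4 had 63.8, 67.7 and 57.5 CPM in WT and 63.1, 62.7 and 64.0 CPM in KO, with an interval from -0.16 to 0.17.

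The other 3 members were not tested. Mrpl30 had 1, 1 and 2 counts in WT and 3, 3 and 1 in KO. Mrpl36 and Mrpl53 each had 1, 0 and 2 counts in WT and 1, 1 and 0 in KO. At these counts no difference was detectable. Another 7 known mitoribosomal proteins (Mrpl9, Mrpl11, Mrpl24, Mrpl28, Mrpl33, Mrpl39 and Mrps6) had no row under these symbols in the count table and could not be analysed.

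The low libraries were the same in both subunits. Relative to the mean of the WT libraries, the median log2 deviation of the 40 large subunit members was 0.03, 0.06 and -0.11 in WT replicates 1 to 3 and -0.09, -0.04 and -0.03 in KO replicates 1 to 3. For the 28 small subunit members it was 0.03, 0.09 and -0.12 in WT and -0.10, -0.04 and 0.02 in KO. WT replicate 3 and KO replicate 1 had the lowest medians in each. WT replicate 3 was the highest library for 0 of the 68 members, against 16.2% of all genes. It was the lowest for 26 (38.2%), against 16.3% of all genes. KO replicate 1 was the lowest for 25 members (36.8%), against 16.9% of all genes. WT replicates 1 and 2 were the highest for 21 (30.9%) and 27 (39.7%) members, against 19.0% and 18.0% of all genes.

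**Figure D3:**
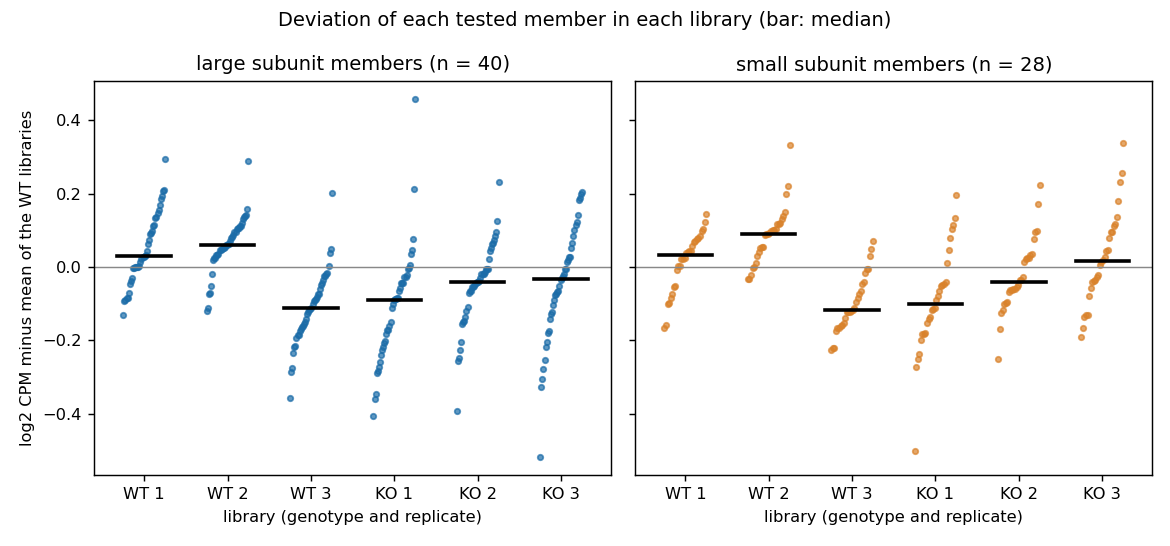
Log2 CPM of each tested member minus its mean over the WT libraries (y axis), for the 6 libraries (x axis), with large subunit members left and small subunit members right, and bars at the medians. WT replicate 3 has the lowest median of the 6 libraries in both subunits, at -0.11 and -0.12, and KO replicate 1 is next at -0.09 and -0.10.

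In 2 other gene lists WT replicate 3 and KO replicate 1 were also the lowest libraries, here with KO replicate 1 below WT replicate 3. The 73 tested cytosolic ribosomal proteins, which form the ribosome that translates nuclear mRNAs, had median deviations of 0.09, 0.04 and -0.15 in WT and -0.17, -0.09 and -0.0017 in KO. Of these 62 were below 0 in fold change, 13 (17.8%) were lower and 1 was higher by the unadjusted threshold, with a median log2 fold change of -0.08. The 77 tested nuclear genes of oxidative phosphorylation, whose products assemble with those of the mitochondrial ribosome, had median deviations of 0.07, 0.06 and -0.14 in WT and -0.18, -0.09 and -0.06 in KO. Of these 71 were below 0 and 17 (22.1%) were lower, with a median of -0.12. Over all genes tested 49.5% were below 0, 5.15% were lower and 4.19% were higher, and 7.35% of the 68 members were lower. The shifts of these 2 lists were larger than those of the mitoribosomal members on the same scale, and the difference between lists was not tested.
The fold changes also moved with gene span. The median genomic span of the 68 tested members in RefSeq was 6652 bases, and that of 11695 tested genes with a span was 24839 bases. Across genes, Spearman's rho between span and log2 fold change was 0.38 over the 68 members and 0.21 over all genes tested, in the same 6 libraries, and genes are not independent replicates. The 1769 other genes with a span up to 6497 bases, the longest of the shorter 34 members, had median deviations of 0.04, 0.05 and -0.07 in WT and -0.08, -0.05 and -0.04 in KO, so that KO replicate 1 and WT replicate 3 were lowest there as well. For the 9858 longer genes no library median was further than 0.019 from 0. All 1803 tested genes with a span up to that limit, members included, had a median log2 fold change of -0.06, and 9.82% of them were lower. The shorter 34 members had the same median, -0.06, and 4 were lower. The longer 34 members had -0.05 and 1 was lower. All 9892 tested genes of longer span had a median of 0.01, and 4.29% of them were lower. The part of span in the members' shift was not tested.

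**Figure D4:**
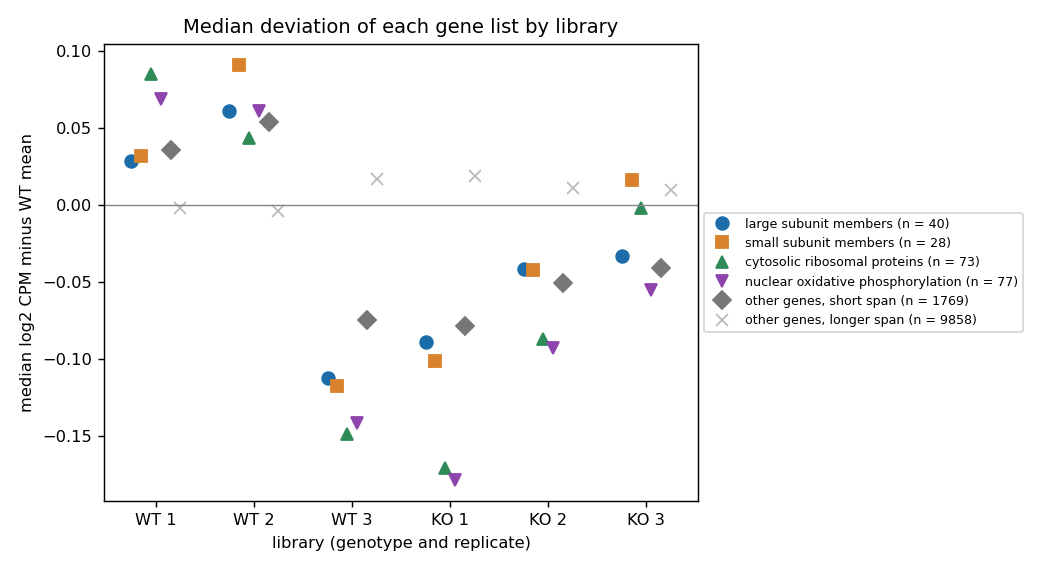
Median over the genes of each list of log2 CPM minus the WT mean (y axis) in each of the 6 libraries (x axis), for both subunits, 2 other families and the other genes split at a span of 6497 bases. Both subunits, both other families and the other short genes are above 0 in WT replicates 1 and 2 and below 0 in WT replicate 3 and KO replicates 1 and 2, and the longer genes stay within 0.019 of 0.

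**Figure D5:**
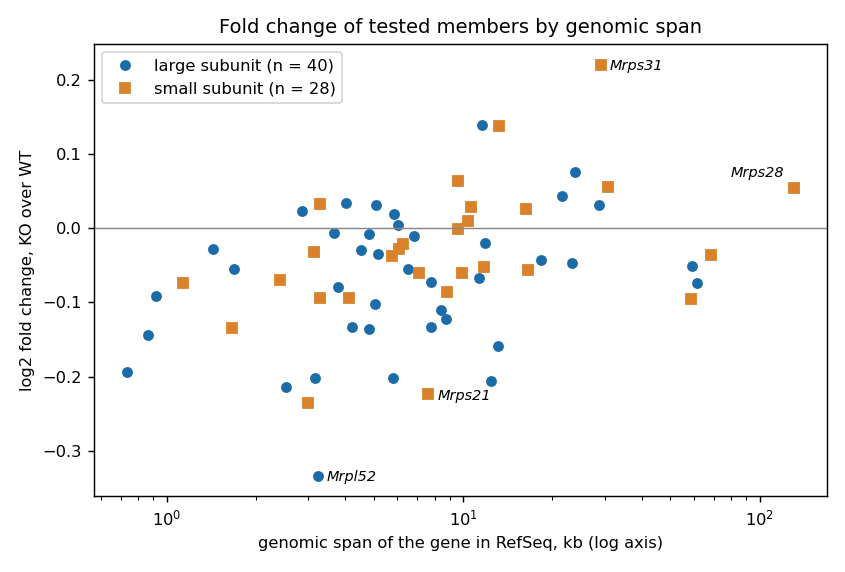
Log2 fold change of KO over WT (y axis) against genomic span in kb (x axis, log scale) for the 68 tested members, large subunit as circles and small subunit as squares. Spearman's rho is 0.38, and the labelled members are the lowest (Mrpl52 at -0.33), the highest (Mrps31 at 0.22), the longest (Mrps28) and Mrps21, which is lower in KO but lies in the longer part by span.

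The pathway around the mitochondrial ribosome was described from lists of its other parts. Over all genes tested, 5.15% were lower and 4.19% were higher by the unadjusted threshold in edgeR. Of the 5 subunit genes without an Mrp symbol, 0 passed the unadjusted threshold, with a median log2 fold change of -0.07. Of 23 tested assembly factors 0 were lower and 1 was higher, with a median of -0.03. The higher one was Tfb1m, which methylates the rRNA of the small subunit (log2 fold change 0.25, SE 0.104, edgeR adjusted p = 0.479).
Of 14 tested mitochondrial translation factors 0 were lower and 3 were higher (21.4%, against 4.19% of all genes), with a median of 0.03. These were Guf1, an elongation factor (0.33, SE 0.0864, edgeR adjusted p = 0.274), Mtif3, an initiation factor (0.42, SE 0.145, edgeR adjusted p = 0.387), and Gfm2, which acts in ribosome recycling (0.23, SE 0.0929, edgeR adjusted p = 0.474). They had the opposite sign to the lower members, and none passed the adjusted threshold. Of 15 tested mitochondrial aminoacyl-tRNA synthetases and 16 tested genes of mitochondrial transcription and RNA processing, 0 passed in either direction, with medians of 0.02 and 0.02. By the unadjusted threshold DESeq2 gave 0 calls in these lists and among the subunits without an Mrp symbol, 0 higher assembly factors and 2 higher translation factors. Of 18 tested genes of mitochondrial import, structure and biogenesis, 1 was lower (Tomm40, of the outer membrane import pore, -0.21) and 1 was higher (Gabpa, a subunit of the GA-binding protein, 0.20), with a median of -0.01. In DESeq2 1 gene of this list was lower and 0 were higher. Over all 14474 genes with a DESeq2 p-value, 469 were lower and 369 were higher by the unadjusted threshold.

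Some members lie beside other genes in ways that bear on their counts. In RefSeq 18 of the 71 members overlap another gene, and 18 of the 57 listed promoters have a gene of the opposite direction starting within 1000 bases. Among the lower members Mrpl27 overlaps Eme1 and Mrpl55 overlaps Guk1, and Mrps31 overlaps LOC120097532. Whether the library kit kept the strand is described differently in the sources, so reads of overlapping genes may not have been told apart. For 13 tested members the divergent neighbour was tested too, and 0 of these neighbours passed the unadjusted threshold.
The pair Mrpl46 and Mrps11 joins both subunits at 1 divergent promoter, the Mrpl46 side of which is shown above. Mrpl46 had 24.0, 23.1 and 19.6 CPM in WT and 17.4, 21.5 and 22.4 CPM in KO. Mrps11 had 30.9, 34.4 and 31.1 CPM in WT and 29.1, 32.6 and 34.7 CPM in KO. In both genes KO replicate 1 was the lowest library and the groups overlapped. The 95% interval of the log2 fold change ran from -0.38 to 0.14 for Mrpl46 and from -0.21 to 0.20 for Mrps11.

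Facts of the whole series bear on these values as follows. The libraries held 9619812 to 13390476 counted reads, and intervals cover the spread between libraries of each group. Fmr1 itself was at 47.6 to 51.6 CPM in WT and 11.6 to 17.4 CPM in KO, lower in every KO library. In a principal component analysis of log2 CPM the leading axis took 28.8% of the variance. The score of WT replicate 3 on it (6.20) was within the range of the KO libraries (5.49 to 11.0) and far from WT replicates 1 and 2 (-19.6 and -12.4). By the unadjusted threshold in edgeR 5.15% of all genes tested were lower and 4.19% were higher, and 49.5% were below 0 in fold change. Hippocampal markers such as Wfs1 and Neurod6 were present, and 4 of the 7 in the table had enough counts to be tested. Of these 4, 3 were above 0 and 0 passed the unadjusted threshold, with a median log2 fold change of 0.06. The 7 summed to 663 to 826 CPM in WT and 700 to 793 CPM in KO. Of 4 striatal and thalamic markers 3 were above 0 and 1 was higher, with a median log2 fold change of 0.20. They summed to 20.7 to 24.2 CPM in WT and 23.2 to 28.3 CPM in KO. Of 10 myelin and oligodendrocyte markers 10 were below 0 and 4 were lower in KO, with summed levels of 13165 to 13899 CPM in WT and 10414 to 11907 CPM in KO. Of 6 microglia markers 6 were below 0 and 1 was lower, with a median log2 fold change of -0.13, and of 5 tested choroid plexus and blood markers 5 were below 0 and 2 were lower, with a median of -0.55. Of 6 astrocyte markers 5 were above 0 and 1 was higher, with a median of 0.13. Endothelial and inhibitory neuron markers, 3 each, had medians of 0.13 and -0.06. Of 5 excitatory neuron markers 4 were below 0 and 0 passed the unadjusted threshold, with a median of -0.10. They summed to 5110 to 6250 CPM in WT, the lowest being WT replicate 3, and to 5213 to 5536 CPM in KO. The part of cell makeup in the members' shift was not tested.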

How the data were processed

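Total RNA was isolated from hippocampus with TRIzol, and single-end reads were, per the study's methods and the submitters' processing notes, checked with FastQC, aligned to rn6 with HISAT2 and counted per gene with htseq-count under its intersection non-empty mode. Versions and annotation are not given in the sources used here. The deposited table holds whole-number counts per gene and library, not normalized by the authors. A table with the authors' own DESeq2 comparison was not used.

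The analysis used edgeR 4.0.16 in R 4.3.3 (filterByExpr with a minimum count of 10, TMM factors, robust quasi-likelihood fit, genotype as the only term), with p-values adjusted over all 11800 genes tested. CPM use TMM-scaled library sizes. DESeq2 1.42.0, DESeq2 size factors, no filter, a replicate block and leaving out each library were the alternatives. The script was tested on simulated data. No source says more of the replicates than 1 library per rat, and 3 against 3 libraries cannot reach an exact permutation p below 0.1, so single values carry no such test.

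Members and lists were chosen with earlier results of these data known. Named were members past the unadjusted threshold, those whose groups did not overlap, the one of each subunit nearest to 0 and those not tested. Also named were 10 with known roles (of these Mrpl11 had no row in the count table) and up to 3 genes per other list. A part of the rule on level per coding length could not be applied, since no protein lengths were at hand. Spans, neighbours and promoters come from RefSeq on GRCr8, where all 71 members matched, and were used for no count.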

Additional observations from a re-analysis of the deposited data

How the results depend on the processing

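The medians of both subunits stayed below 0 under every alternative run. Leaving out 1 library gave medians from -0.11 to -0.02 for the large and from -0.07 to -0.0006 for the small subunit, with 39 to 59 of 68 members below 0. The count of lower members, 5 in the analysis as reported, was 1 with DESeq2 and 3 with the replicate block, and ran from 1 to 11 when 1 library was left out. Over all genes tested the same count was 608 as reported, 604 with the block and 377 to 1062 with 1 library left out. It was 469 of 14474 genes with DESeq2. With 1 library left out, the count of higher members ran from 0 to 1. The 1 was Mrps31, without WT replicate 2 (324 of 11889 genes higher) and without KO replicate 1 (325 of 11922). The count of members past the adjusted threshold also ran from 0 to 1 (Mrpl52 without WT replicate 3, where 256 of 11891 genes passed). Same-numbered libraries did not deviate together (correlations across genes of 0.03, -0.01 and -0.08). The correlations of differently numbered libraries ran from -0.08 to 0.08. With 3 libraries per group, such values cannot show whether the rats were paired by number. With the block 0 members passed the adjusted threshold, while over all genes 17 did, against 3 without it.

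Of the 68 members, 55 to 59 kept the sign of their fold change when 1 library was left out. Among the named members, those that changed sign were close to 0. Mrps11 had 8.4e-05 with DESeq2 size factors and 0.0012 with the DESeq2 test. Leaving out 1 library gave log2 fold changes from -0.0789 to 0.0525 for Mrpl12, -0.0579 to 0.0618 for Mrpl4, -0.143 to 0.000603 for Mrpl58, -0.0557 to 0.0636 for Mrps11, -0.133 to 0.00321 for Mrps18a, -0.0595 to 0.0219 for Mrps18b, -0.168 to 0.0762 for Mrps18c and -0.0584 to 0.0686 for Mrps36. The cause was not tested. With 3 libraries per group and about 366 reads per member, the 95% interval reached a median of 0.21 to either side on the log2 scale. This width is not a limit of detection. By the unadjusted threshold in edgeR, Mrpl27 and Mrpl55 passed at -0.20, while Mrps12 at -0.24 and Mrps31 at 0.22 did not.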
